A study of Mus musculus with 5 samples.

Results

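Rab GTPases are the largest branch of the Ras superfamily of small GTP-binding proteins, and the genes described here are the rows of the count table whose symbol is Rab followed by a number and, in some, a letter. The table held 59 such rows. The 11 with fewer than 50 reads summed over the 5 libraries were left out, which left 48 of the 21983 genes in the table. Membership rested on the symbol and on the summed reads only, so the difference between genotypes played no part in it. All 48 passed the low-count filter of the test, as did 12543 genes in all.

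A Rab protein switches between a GDP-bound form in the cytosol and a GTP-bound form on a membrane, where it recruits motors, tethers and other effectors. Each marks one or a few compartments, so the set of Rabs describes the routes of membrane traffic in a cell. Exchange factors load GTP, TBC-domain proteins speed its hydrolysis, and GDP dissociation inhibitors extract the inactive protein. In microglia, the resident macrophages of the brain, these routes carry phagocytosed material to lysosomes, recycle receptors and release stored proteins.

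The data are RNA-seq counts from 5 libraries of primary mouse microglia, prepared from brain. In 2 libraries the labelled genotype was Cx3cr1CreERT2 Ythdf2fl/fl, called knockout-labelled here: a tamoxifen-dependent Cre recombinase driven from Cx3cr1, a gene that microglia and other macrophages express, together with floxed Ythdf2. The YTHDF2 protein binds N6-methyladenosine in mRNA in the cytoplasm and promotes decay of the bound transcripts. The other 3 libraries had the labelled genotype Ythdf2fl/fl and serve as controls. All 5 libraries therefore carried the floxed alleles and only the knockout-labelled libraries carried Cre, so an effect of the Cre allele and an effect of losing Ythdf2 cannot be told apart. No label used here states age, tamoxifen treatment or the number of animals, and p-values measure the spread between these libraries, which may be technical.

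Total gene counts were 15743468 and 19577217 in the knockout-labelled libraries and 13947500 to 15744558 in the controls. Ythdf2 itself was not lower in the libraries labelled knockout, at 103 and 127 CPM (reads of a gene scaled to library size) against 57.0, 69.2 and 68.8 CPM in the controls, although a gene-level count does not test the deleted exons. Cx3cr1, the gene that carries the Cre allele, was at 337 and 97.7 CPM in knockout-labelled and 682, 992 and 681 CPM in control libraries. Each direction below rests on the labels, which the Ythdf2 counts did not bear out. Cx3cr1 was lower in both knockout-labelled libraries than in every control, and what this says about the labels was not tested. Over all genes tested, 9.85% lay above every control in both knockout-labelled libraries and 10.4% below, as a background for the marker lists here. Of 14 homeostatic microglia markers, 3 lay above every control in both knockout-labelled libraries and 4 below. Their summed level was 3523 and 4303 CPM in the knockout-labelled libraries and 5782 to 7094 CPM in the controls, and the microglial receptor gene Trem2 was listed at 0 in every library. Markers of other cells also differed between libraries. The 10 choroid plexus markers summed to 576 and 349.8 CPM in the knockout-labelled libraries and to 60.6 to 213 CPM in the controls, with 9 of the 10 above every control. Enpp2, which overlapped between groups, made up most of that sum in labelled knockout 1 and in each control. It was at 401 and 121 CPM (knockout-labelled) against 158, 206 and 33.2 CPM (control). Ttr, which did not overlap, was at 101 and 203 CPM (knockout-labelled) against 22.1, 5.89 and 24.8 CPM (control). Kcne2 and Sostdc1 were at 0 in controls 1 and 2, and Kcnj13 in control 2. The 8 oligodendrocyte markers summed to 12895 and 4719.8 CPM in the knockout-labelled libraries and to 10838, 9810 and 1312 CPM in controls 1 to 3, with none of the 8 separating the groups. The 8 fibroblast and mural cell markers summed to 29.9 and 14.2 CPM in the knockout-labelled libraries and to 113, 112 and 35.7 CPM in the controls, with 5 below every control. The 9 cell cycle markers summed to 1637 and 449 CPM in labelled knockout 1 and 2 and to 369, 382 and 739 CPM in the controls, with 4 above every control and 1 below. In such mixtures fewer cells of a type and less RNA per cell cannot be told apart, and the part of other cell types in the results below was not tested.

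Levels were compared between Rab genes as CPM per kb of the longest annotated transcript, averaged over the 5 libraries. The set spanned a wide range, with 11 members above 50 CPM per kb, 18 from 10 to 50, 13 from 1 to 10 and 6 under 1. Rab7, the master Rab of late endosomes and lysosomes, had the highest level, at 226 ± 26.1 CPM per kb (SD, n = 5). Rab5c, an early endosome Rab that drives fusion of incoming vesicles, followed at 174 ± 44.8 CPM per kb, and its libraries overlapped those of Rab7. Rab32, which acts on lysosome-related organelles and phagosomes, was at 103 ± 22.3 CPM per kb and Rab1b, which acts between endoplasmic reticulum (ER) and Golgi, at 100.4 ± 7.48 CPM per kb. Rab1a, its paralog, was at 82.0 ± 10.6 CPM per kb and Rab31, a Rab of the trans-Golgi and endosomes, at 77.7 ± 13.01 CPM per kb. For each pair of neighbours in this order the ranges over the 5 libraries overlapped. These 6 genes carried 50.1% of the summed level of the 48. At the other end Rab15, Rab44, Rab30, Rab3b, Rab36 and Rab33a, among them Rabs best known from neurons and secretory cells, lay at 0.284 to 0.728 CPM per kb.

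**Figure D1:**
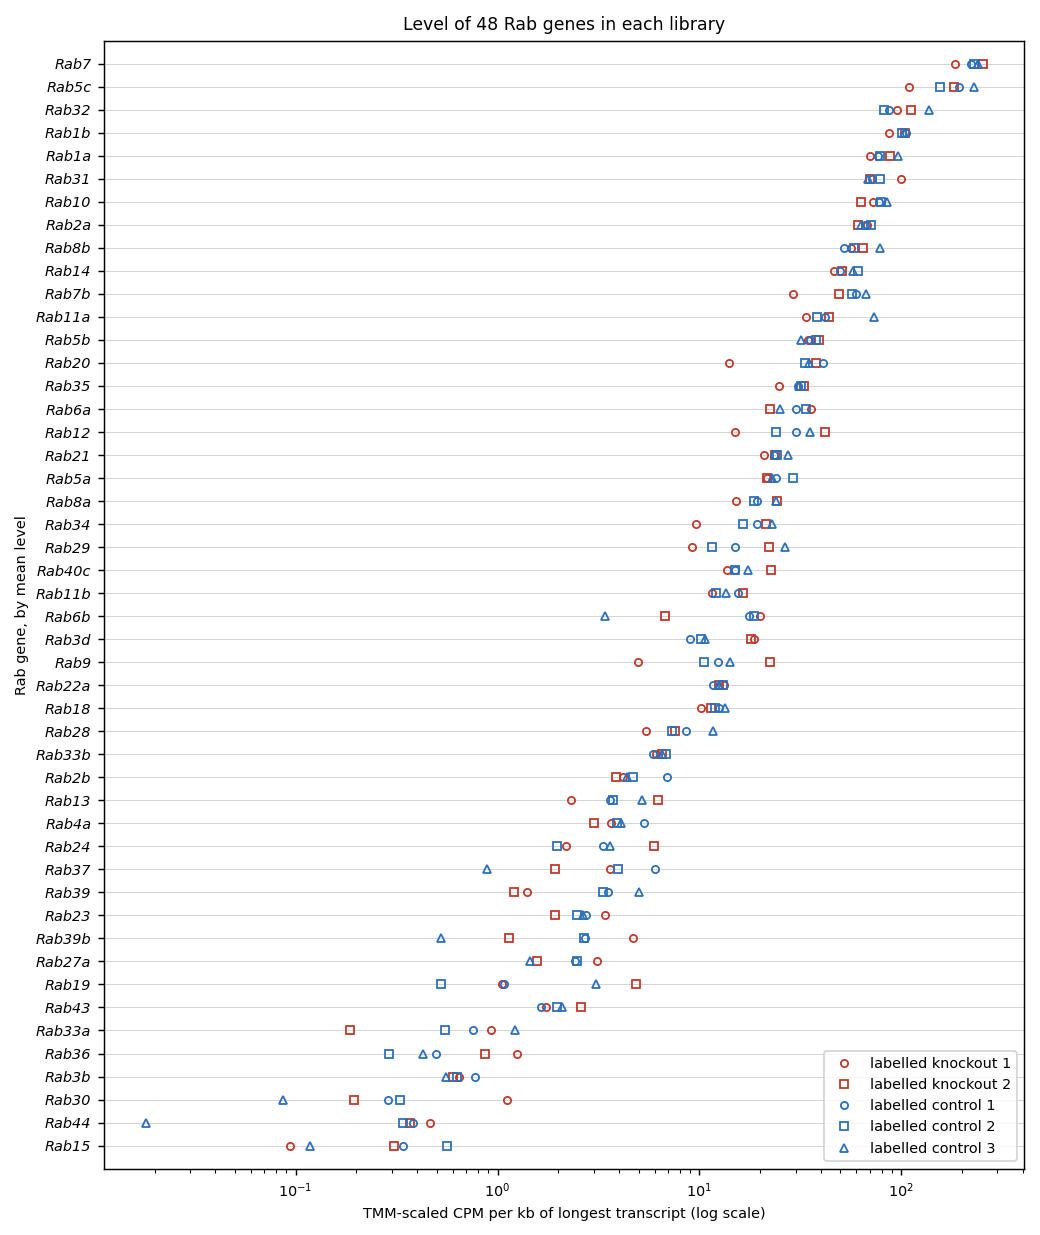
Level of each of the 48 Rab genes in each library, as TMM-scaled CPM per kb of the longest transcript on a log axis. Red points are the 2 libraries labelled knockout and blue points the 3 controls. Rab7 and Rab5c lead the order, and the libraries of most genes lie close together while those of Rab6b, Rab39b, Rab30 and Rab44 are spread out.

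Between genotypes no Rab gene passed the test. In edgeR's quasi-likelihood test, adjusted over all genes tested, 0 of 48 members were called and the smallest adjusted p was 0.340, where the background was 0 of all genes tested (0%). At an unadjusted p under 0.05 there were 3 members, 6.25% of the 48 against 6.68% of all genes tested. Of these, 2 were higher in the knockout-labelled libraries (background 3.99%) and 1 was lower (background 2.69%). DESeq2 called 1 member at an adjusted p under 0.05, against 1.85% of all genes, and limma-voom called 0 with 4 at an unadjusted p under 0.05 (background 6%). The median log2 fold change of the members was -0.07, against 0.01 over all genes tested. Without labelled knockout 1 that order turned, with -0.050 for the members and -0.058 for all genes, and without labelled knockout 2 the medians were -0.24 and -0.027. Of the 48 values 29 were negative (60.4%, against 48.9% of all genes) and 19 positive (39.6%, against 51.1%), and 38 of the 48 lay under 0.5 in size (79.2%, against 70.6% of all genes), while 3 were beyond 1 (6.25%, against 11.8%). Both knockout-labelled libraries lay above every control for 2 members (background 9.85%) and below every control for 7, which is 14.6% of the members against 10.4% of all genes tested. Summed over the 48 genes, Rab transcripts took 3842 and 4459 CPM in labelled knockout 1 and 2 and 4340.2, 4352 and 4849 CPM in the controls, so the groups overlapped.

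**Figure D2:**
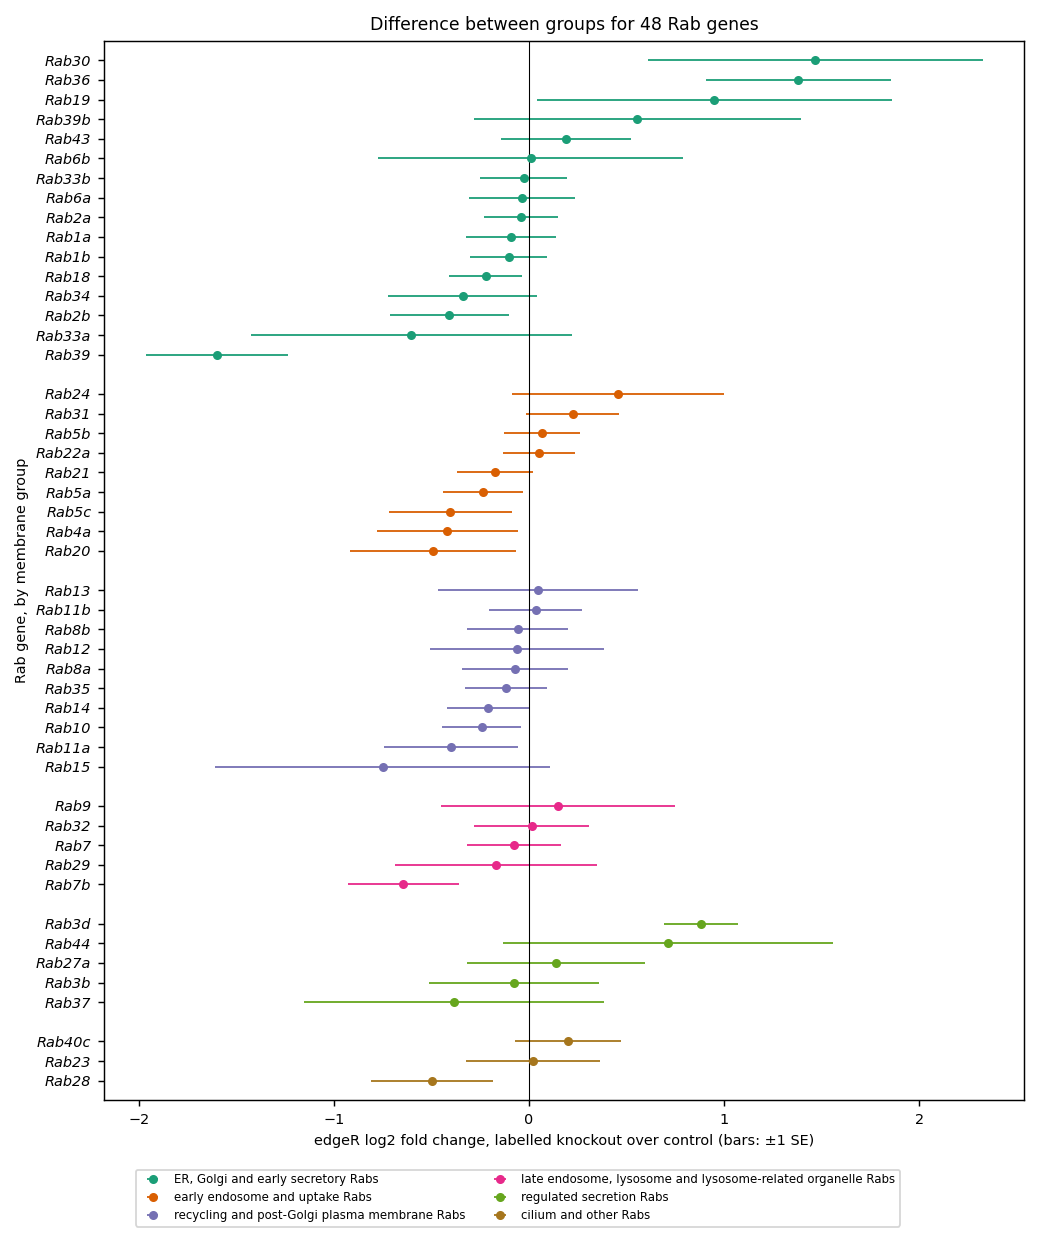
edgeR log2 fold change, labelled knockout over control, for each of the 48 Rab genes, grouped by the membrane on which each is best known, with bars of 1 standard error. The values run from -1.60 for Rab39 to 1.47 for Rab30, and most members lie near 0.

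Among the 16 Rabs of the ER, Golgi and early secretory routes, 10 log2 fold changes were negative and 6 positive. Their summed level was 888 and 864 CPM in the knockout-labelled libraries and 903 to 947 CPM in the controls, so the groups did not overlap, by a narrow margin. Rab39, whose human counterpart acts in phagosome maturation in macrophages, lies on chromosome 9 (GRCm38, GENCODE M21, 53684110 to 53706232, minus strand). It stood at 4.16 and 3.57 CPM in labelled knockout 1 and 2, against 10.4, 9.88 and 14.9 CPM in controls 1 to 3. Every control was more than 2 times either knockout-labelled library, with 70 and 66 reads in the knockout-labelled libraries and 166, 156 and 200 in the controls. The log2 fold change was -1.60 (SE 0.365), with an edgeR adjusted p of 0.369 and a DESeq2 adjusted p of 0.0109. The DESeq2 call was lost when any 1 of the 5 libraries was left out, with adjusted p from 0.108 to 0.277, while the log2 fold change stayed between -1.72 and -1.40 in DESeq2.

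Rab39 and Rab36 were listed with the ER and Golgi Rabs, although the roles named here concern phagosomes, late endosomes and lysosomes. Rab36, which positions late endosomes and lysosomes near the nucleus, lies on chromosome 10 (75037058 to 75054748, plus strand). It too separated the groups, at 4.10 and 2.86 CPM in the knockout-labelled libraries against 1.63, 0.950 and 1.41 CPM in controls 1 to 3, from 69 and 53 reads (knockout-labelled) against 26, 15 and 19 reads (control). The log2 fold change was 1.38 (SE 0.476; edgeR unadjusted p = 0.0281, adjusted p = 0.665). Rab2b, a Golgi Rab, was at 14.9 and 13.8 CPM in knockout-labelled and 24.6, 16.9 and 15.6 CPM in control libraries, and control 1 stood well above the other two controls. Of its 4163 exonic bases 2469 are overlapped by Gm43766, which is annotated on the other strand, and no source used here states whether strand was used in counting. Rab18, which acts at ER and lipid droplets, was at 66.5 and 74.3 CPM in the knockout-labelled libraries against 81.3, 77.6 and 87.4 CPM in the controls, a log2 fold change of -0.22 (SE 0.189; edgeR adjusted p = 0.924). Rab1b was at 167 and 200.1 CPM in knockout-labelled and 203, 193 and 198 CPM in control libraries, and Rab1a at 197 and 249 CPM (knockout-labelled) against 218, 221 and 274 CPM (control), so for both the groups overlapped. Rab2a, Rab33b and Rab6a, which act at the Golgi, had log2 fold changes of -0.04, -0.03 and -0.04. Rab34, which acts at the Golgi and in cilium formation, was at 16.2 and 35.9 CPM (knockout-labelled) against 32.7, 27.8 and 38.5 CPM (control), with labelled knockout 1 alone below the controls. Rab43, at 7.97 and 11.9 CPM (knockout-labelled) against 7.54, 9.12 and 9.59 CPM (control), shares 4164 of its 5526 exonic bases with Gm45140 on the same strand, so its count is uncertain. Smaller exon overlaps, of 103 to 708 bases, are annotated for Rab5a, Rab6a, Rab7, Rab10, Rab11a, Rab11b, Rab18, Rab20, Rab22a, Rab27a, Rab33b, Rab39b, Rab3b and Rab40c. Rab19 was at 1.67 and 7.62 CPM in knockout-labelled and 1.70, 0.824 and 4.83 CPM in control libraries, and Rab33a, a Rab of lymphocytes and brain, at 1.07 and 0.216 CPM (knockout-labelled) against 0.880, 0.634 and 1.41 CPM (control).

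The 9 early endosome and uptake Rabs summed to 961 and 1061 CPM in the knockout-labelled libraries and to 1082, 1055 and 1141 CPM in the controls, which left labelled knockout 2 inside the control range. Rab5c was at 215 and 359 CPM in labelled knockout 1 and 2, against 379.6, 307 and 452 CPM in the controls. Labelled knockout 1 alone lay below all controls, and the log2 fold change of -0.40 (SE 0.316) was -0.82 without labelled knockout 2 and -0.11 without labelled knockout 1. Rab5a, its paralog, was at 69.9 and 69.4 CPM in knockout-labelled and 77.7, 94.3 and 73.9 CPM in control libraries. The knockout-labelled libraries lay below every control by a margin smaller than the spread among the controls, and the log2 fold change was -0.24 (SE 0.204; edgeR adjusted p = 0.924). Rab4a, which returns receptors rapidly to the surface, also lay below every control, at 5.18 and 4.27 CPM (knockout-labelled) against 7.54, 5.58 and 5.80 CPM (control), from 87 and 79 reads (knockout-labelled) against 120, 88 and 78 reads (control). Rab31 was highest in labelled knockout 1, at 347 and 243 CPM in the knockout-labelled libraries against 249, 272 and 237 CPM in the controls. Its log2 fold change of 0.22 (SE 0.239) became -0.09 without labelled knockout 1. Rab5b, Rab21, which traffics integrins, and Rab22a overlapped between groups with log2 fold changes of 0.07, -0.17 and 0.05. Rab22a had the smallest ratio of highest to lowest library of the 48, 1.13, at 94.3 and 89.9 CPM (knockout-labelled) against 83.7, 93.7 and 89.3 CPM (control). Rab24, linked to autophagy, was at 3.93 and 10.75 CPM in knockout-labelled and 6.03, 3.55 and 6.54 CPM in control libraries, and 1258 of its 2015 exonic bases are overlapped by Prelid1 on the other strand.

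Of the 10 Rabs of recycling and post-Golgi routes, 8 log2 fold changes were negative and 2 positive, and the summed level was 1075 and 1288 CPM in the knockout-labelled libraries and 1203, 1256 and 1490.5 CPM in the controls. Rab10, which carries receptors and transporters to the plasma membrane, was the member with the highest level per kb in this group. It was at 255 and 223 CPM in the knockout-labelled libraries against 272, 278 and 298 CPM in the controls, a log2 fold change of -0.24 (SE 0.202; edgeR adjusted p = 0.924). The gap between the groups was narrower than the spread within either. Rab11a, the recycling endosome Rab, stood out in control 3, at 79.1 and 102 CPM in the knockout-labelled libraries against 98.5, 89.7 and 171 CPM in the controls. Rab14, Rab8a, Rab8b and Rab35 overlapped between groups, with log2 fold changes of -0.21 to -0.06. Rab11b, the paralog of Rab11a, was at 70.9 and 101 CPM (knockout-labelled) against 94.5, 74.1 and 82.6 CPM (control). Rab13, a Rab of cell junctions, was at 3.27 and 8.86 CPM (knockout-labelled) against 5.09, 5.26 and 7.36 CPM (control). Rab15, best known from neurons, had the lowest level per kb of the 48, with 5 and 18 reads (knockout-labelled) against 17, 28 and 5 reads (control).

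The 5 members of late endosomes, lysosomes and related organelles summed to 752 and 1066 CPM in the knockout-labelled libraries and to 972, 957 and 1168 CPM in the controls. Rab7 was at 397 and 546 CPM in labelled knockout 1 and 2, against 481, 494 and 517 CPM in the controls. Its 2 knockout-labelled libraries lay on either side of the controls, and the log2 fold change of -0.08 (SE 0.243) turned to 0.11 without labelled knockout 1. Rab7b, a relative that in mouse macrophages limits Toll-like receptor signalling by sending receptors to lysosomes, lies on chromosome 1 (131688695 to 131715439, plus strand). It was at 131 and 220.5 CPM in the knockout-labelled libraries against 268, 257 and 301 CPM in the controls. Both knockout-labelled libraries lay below every control, labelled knockout 1 by far the more, and among members with a mean of at least 10 CPM its log2 fold change of -0.64 (SE 0.285; edgeR unadjusted p = 0.0652, adjusted p = 0.789) was the most negative. It was -0.35 without labelled knockout 1 and -1.07 without labelled knockout 2. Rab32 was at 205 and 239 CPM in knockout-labelled and 188, 177 and 296 CPM in control libraries. The log2 fold change was 0.01 (SE 0.294).

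The 5 regulated secretion Rabs summed to 95.5 and 83.7 CPM in the knockout-labelled libraries and to 62.5, 61.1 and 50.1 CPM in the controls. The groups did not overlap, as was also the case for the summed ER, Golgi and early secretory Rabs. Rab3d, which had the smallest unadjusted p of the 48 in edgeR and limma-voom (in DESeq2 it was Rab39), made up most of the sum of the secretion Rabs. Rab3d acts on secretory granules of exocrine, mast and other secretory cells. It lies on chromosome 9 (21907491 to 21918192, minus strand), and none of its exons overlaps that of another annotated gene. It was at 72.1 and 70.2 CPM in labelled knockout 1 and 2, against 35.1, 39.5 and 41.3 CPM in controls 1 to 3. Both knockout-labelled values exceeded every control. Mean levels were 71.1 ± 1.34 CPM (SD, n = 2) and 38.6 ± 3.18 CPM (SD, n = 3), so the 1.84-fold difference was far larger than the spread in either group. The log2 fold change was 0.88 (SE 0.189), with an edgeR unadjusted p of 0.00364 and an adjusted p of 0.340, and a DESeq2 adjusted p of 0.0632. It ranged from 0.82 to 0.93 when each library was left out in turn. Rab3b, its paralog, was at 2.14 and 1.9996 CPM in knockout-labelled and 2.58, 2.09 and 1.86 CPM in control libraries, and Rab3a, the synaptic vesicle form, had no read in any library. Rab27a, which docks lysosome-related granules at the plasma membrane, was at 9.87 and 4.97 CPM (knockout-labelled) against 7.67, 7.86 and 4.61 CPM (control), with overlapping groups. Rab44, a large Rab with an EF-hand domain, had 32 and 28 reads in the knockout-labelled libraries against 25, 22 and 1 read in the controls.

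In the remaining group Rab40c, a component of a ubiquitin ligase, was at 39.6 and 65.9 CPM in the knockout-labelled libraries against 43.7, 43.6 and 50.6 CPM in the controls; the log2 fold change was 0.20 and its SE 0.272. The ciliary Rabs Rab23 and Rab28 overlapped between groups. Rab23 was at 14.99 and 8.43 CPM in knockout-labelled and 12.005, 10.9 and 11.7 CPM in control libraries, and Rab28 at 15.6 and 22.0 CPM (knockout-labelled) against 24.8, 21.2 and 33.7 CPM (control).

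**Figure D3:**
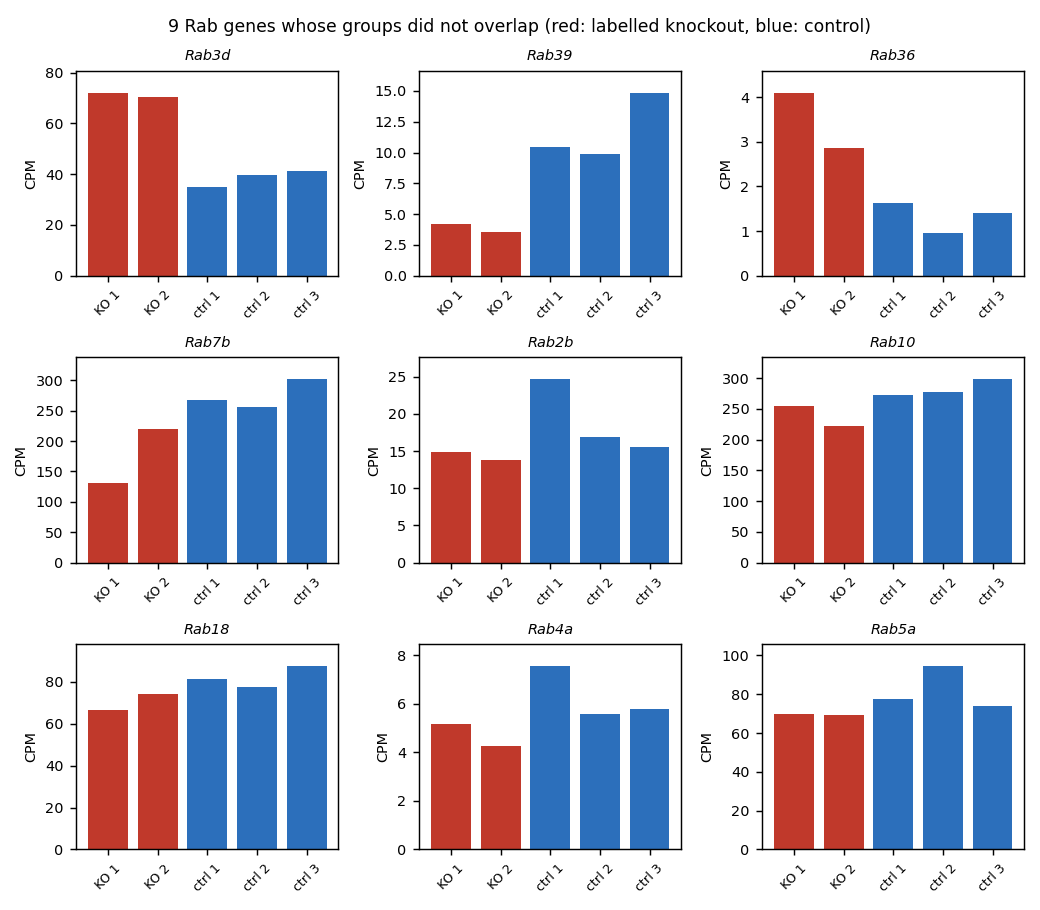
Level in each library, in TMM-scaled CPM from 0, of the 9 Rab genes whose knockout-labelled libraries both lay above (Rab3d, Rab36) or below (the other 7) every control. Rab3d is at 72.1 and 70.2 CPM in the red knockout-labelled bars and at 35.1 to 41.3 CPM in the blue control bars, whereas for Rab10, Rab18 and Rab5a the gap is narrow.

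Several Rabs differed more between libraries of 1 genotype than between genotypes. Among the 33 members with a mean of at least 10 CPM, the highest library was at least 2 times the lowest in 11 and under 1.5 times in 15. The share over all genes is not given, so this spread cannot be read as particular to Rab genes. Among these 33, Rab6b, the brain-enriched form of the Golgi Rab6, had the widest ratio, at 5.85. It was at 99.9 and 33.9 CPM in labelled knockout 1 and 2, against 88.6, 93.8 and 17.1 CPM in the controls, and its log2 fold change was 0.01 (SE 0.784). Rab39b, a neuronal paralog of Rab39, was at 15.9 and 3.89 CPM (knockout-labelled) against 9.18, 9.12 and 1.78 CPM (control). Rab37, a mast cell granule Rab, was at 9.46 and 5.03 CPM (knockout-labelled) against 15.7, 10.3 and 2.30 CPM (control). Rab30, a Golgi Rab, was at 10.6 and 1.84 CPM (knockout-labelled) against 2.70, 3.10 and 0.818 CPM (control). All 4 were lowest in control 3 and next lowest in labelled knockout 2. These are also the libraries with the lowest summed oligodendrocyte markers, 4719.8 CPM in labelled knockout 2 and 1312 CPM in control 3. The summed 9 neuron markers had the same lowest libraries, at 156 and 42.0 CPM in labelled knockout 1 and 2 and 67.2, 61.02 and 27.5 CPM in controls 1 to 3. That sum rested largely on Tubb3, at 125 and 28.9 CPM (knockout-labelled) against 56.0, 52.3 and 10.2 CPM (control). Gad1 had the same lowest libraries. Nefl did not, at 19.3 and 6.32 CPM (knockout-labelled) against 1.01, 0.824 and 13.5 CPM (control). No other marker of that list exceeded 2.16 CPM in any library. The part of either cell type in the Rab values was not tested. The same 4 genes were picked out after their values were seen.

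A further set, likewise chosen with the values in view, had its lowest library in labelled knockout 1. Rab9, which returns mannose 6-phosphate receptors from late endosomes to the Golgi, was at 7.20 and 32.4 CPM in labelled knockout 1 and 2 against 17.9, 15.2 and 20.6 CPM in the controls. Rab12, a regulator of lysosomal degradation of receptors, was at 31.2 and 86.6 CPM (knockout-labelled) against 62.3, 49.4 and 72.8 CPM (control). Rab29, which binds the kinase LRRK2, was at 11.3 and 27.3 CPM (knockout-labelled) against 18.4, 14.1 and 32.6 CPM (control). Rab20, a phagosome Rab, was at 19.6 and 52.5 CPM (knockout-labelled) against 57.0, 46.4 and 48.5 CPM (control). Labelled knockout 1 was the lowest library for 19 of the 33 members with a mean of at least 10 CPM, and for 9 of the 11 among them with a ratio of at least 2. No share over all genes is given beside these counts, so they cannot be read as particular to Rab genes. For Rab9 and Rab12 labelled knockout 2 was the highest.

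**Figure D4:**
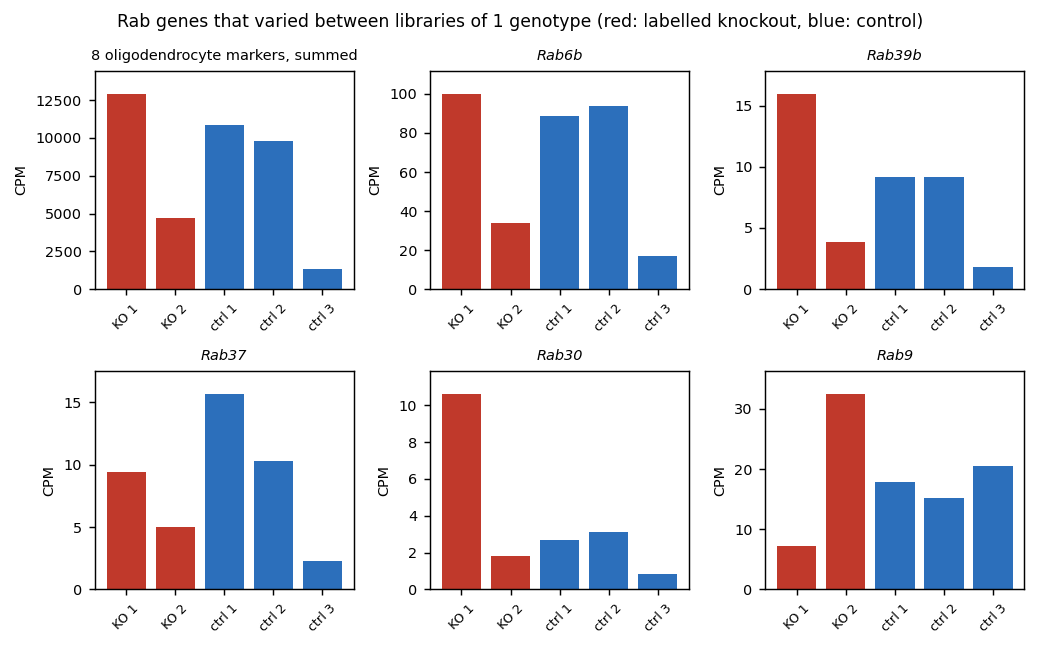
Summed level of 8 oligodendrocyte markers and levels of Rab6b, Rab39b, Rab37, Rab30 and Rab9 in each library, in TMM-scaled CPM from 0, with knockout-labelled libraries in red and controls in blue. The first 4 Rabs are low in control 3 and labelled knockout 2, as the markers are, while Rab9 is lowest in labelled knockout 1.

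The share that each paralog took of its subfamily's CPM per kb was compared within each library. Rab1b made up 55.6% and 54.3% of Rab1 in the knockout-labelled libraries and 51.6% to 57.9% in the controls. Rab7 made up 86.3% and 83.8% of the sum of Rab7 and Rab7b in the knockout-labelled libraries and 78.1% to 80.1% in the controls. Rab2a made up 94.2% and 94.1% of Rab2 in the knockout-labelled libraries and 90.5% to 93.8% in the controls, and Rab3d 96.6% and 96.8% of Rab3 against 92.1% to 95.002% in the controls. In the Rab2, Rab3 and Rab7 subfamilies and in the pair Rab39 and Rab39b the groups did not overlap. These hold Rab2b, Rab3d, Rab7b and Rab39, whose own levels did not overlap, so the shares largely restate those values. No share over other gene pairs is given, so this cannot be read as particular to Rab paralogs. In the Rab1, Rab5, Rab6, Rab8, Rab11 and Rab33 subfamilies they did. Rab6b made up 35.9% and 23.2% of Rab6 in the knockout-labelled libraries and 37.0%, 35.6% and 11.9% in the controls. Rab39 made up 23.0% and 51.2% of the pair Rab39 and Rab39b in the knockout-labelled libraries and 56.6%, 55.4% and 90.5% in the controls. Within this pair Rab39 separated the genotypes and Rab39b did not. The shares are given as a description, since an exact permutation test of 2 libraries against 3 cannot go below 0.1.

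Promoter sequence was compared as a property that the choice of members did not use directly. Members had to reach 50 reads, whereas the promoters of all genes were taken whatever their reads. This difference between the sets was not adjusted for. RefSeq promoters (GRCm38.p6, 250 bases before to 50 after a transcript start) were found for 40 of the 48 members, as 51 windows. Their median GC content was 62% and their median number of CpG dinucleotides 23, against 52.7% and 7 over 32851 promoters of all genes. Rab6b had the highest GC content of the members' windows (78.7%, 42 CpG) and Rab39b the lowest (35.7%, 10 CpG), and both genes were lowest in control 3. Rab3d and Rab39, the members with the smallest unadjusted edgeR p in either direction, had 71% and 70.7% GC. The 150 bases before the start are shown for these 4 genes, on the gene's strand, with every CpG in capitals. They are chr9:21918184-21918333 (minus strand) for Rab3d, chr9:53706233-53706382 (minus) for Rab39, chr9:103111924-103112073 (plus) for Rab6b and chrX:75578232-75578381 (minus) for Rab39b.
Rab3d: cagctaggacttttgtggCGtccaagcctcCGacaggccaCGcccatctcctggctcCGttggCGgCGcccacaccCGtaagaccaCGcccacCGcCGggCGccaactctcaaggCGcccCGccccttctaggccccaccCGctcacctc
Rab39: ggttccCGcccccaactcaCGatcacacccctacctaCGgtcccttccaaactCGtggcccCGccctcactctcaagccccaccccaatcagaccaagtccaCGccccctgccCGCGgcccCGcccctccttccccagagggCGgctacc
Rab6b: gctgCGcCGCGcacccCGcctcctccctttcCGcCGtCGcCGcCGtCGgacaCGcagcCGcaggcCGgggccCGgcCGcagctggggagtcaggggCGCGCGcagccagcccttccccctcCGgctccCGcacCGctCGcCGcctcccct
Rab39b: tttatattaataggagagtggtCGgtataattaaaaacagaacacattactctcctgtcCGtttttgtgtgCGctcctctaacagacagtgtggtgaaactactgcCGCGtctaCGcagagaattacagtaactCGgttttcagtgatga
The 4 windows hold 14, 10, 23 and 7 CpG in that order. The E-box CACGTG, which reads the same on both strands, was in 6 of the members' 51 windows (11.8%) and in 7.15% of all promoters. The core GAGGAAGT of the macrophage factor PU.1, searched on both strands, was in 2 windows (3.92%, those of Rab2b and Rab32) and in 3.2% of all promoters. Neither was in the windows of the 4 genes shown, which says only that these letters are absent there.

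Partners that load, regulate and read Rab proteins were described from lists by function, and 0 of them passed edgeR's adjusted threshold while 2 passed in DESeq2, which called 1.85% of all genes. Over 169 partner genes tested, 9 were higher (background 3.99%) and 1 lower (background 2.69%) at an unadjusted p under 0.05. In both directions together that is 5.92%, against 6.68% of all genes. By direction the partners leaned upward, with 112 positive and 57 negative log2 fold changes, where 51.1% of all genes were positive. Their median was 0.108, against 0.013 over all genes. Both knockout-labelled libraries lay above every control for 13.6% (background 9.85%) and below for 5.92% (background 10.4%). The cause was not tested. The 10 genes of the GDP dissociation inhibitors, escort proteins and prenyl transferase held 0 genes at an unadjusted p under 0.05. Gdi2, the inhibitor with the highest mean in that list, was at 587 and 526 CPM in the knockout-labelled libraries against 471, 649 and 553 CPM in the controls.

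Of 50 exchange factors tested 3 were higher and 0 lower at an unadjusted p under 0.05, 6% against 6.68% of all genes. For 5 of them both knockout-labelled libraries lay above every control (10%, background 9.85%) and for 4 below (8%, background 10.4%). Rin3, an exchange factor for Rab5 proteins, was at 43.2 and 52.0 CPM in the knockout-labelled libraries against 23.1, 31.6 and 18.6 CPM in controls 1 to 3. Its log2 fold change was 0.96 (SE 0.285; edgeR adjusted p = 0.556). Ric1, part of the exchange factor for Rab6, was at 132 and 116 CPM (knockout-labelled) against 56.8, 94.5 and 52.4 CPM (control). Dennd2d, a DENN-domain protein of a family that acts on Rab9, was at 8.51 and 12.97 CPM (knockout-labelled) against 4.78, 3.68 and 6.54 CPM (control). Its exons overlap those of Cept1 on the other strand. Of 39 GTPase-activating proteins 2 were higher and 0 lower (5.13%, background 6.68%). For 9 both knockout-labelled libraries lay above every control (23.1%, background 9.85%) and for 2 below (5.13%, background 10.4%). Tbc1d2, which acts on Rab7, was at 34.8 and 47.8 CPM (knockout-labelled) against 16.4, 20.8 and 29.5 CPM (control). Rab3gap2, the non-catalytic subunit of the enzyme that inactivates Rab3 proteins, was at 184.4 and 184.9 CPM in the knockout-labelled libraries against 106, 120.01 and 146 CPM in controls 1 to 3. Its log2 fold change was 0.57 (SE 0.216; edgeR adjusted p = 0.694). Of its 10800 exonic bases 2034 are overlapped by Iars2 on the other strand.

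Of 56 effectors tested 3 were higher and 1 lower at an unadjusted p under 0.05, 7.14% against 6.68% of all genes. For 6 both knockout-labelled libraries lay above every control (10.7%, background 9.85%) and for 4 below (7.14%, background 10.4%). Micall2, which links Rab8 and Rab13 proteins to actin and cell junctions, was at 28.2 and 29.2 CPM in labelled knockout 1 and 2, against 6.35, 8.24 and 7.14 CPM in the controls. The groups lay far apart with little spread in either. Its log2 fold change was 1.99 (SE 0.257), with an edgeR adjusted p of 0.231, which was the smallest among all genes tested, and a DESeq2 adjusted p of 1.21e-06. The DESeq2 call held without each library in turn, with adjusted p from 0.00194 to 0.0186. Myo5b, a myosin motor that Rab11 recruits, had 26 and 15 reads in the knockout-labelled libraries against 3, 2 and 3 reads in the controls. Mlph, which joins Rab27a to myosin Va in pigment cells, had 8 and 6 reads (knockout-labelled) against 34, 29 and 14 reads (control).

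Of 8 kinases and phosphatases that act on Rabs, 2 lay above every control in both knockout-labelled libraries (25%, background 9.85%). Below every control lay 0 (background 10.4%). At an unadjusted p under 0.05, 1 was higher and 0 lower (12.5%, background 6.68%). This was Lrrk2, the kinase that phosphorylates Rab8, Rab10, Rab12 and related proteins in their switch region, at 40.3 and 24.6 CPM in labelled knockout 1 and 2, against 10.6, 12.7 and 5.13 CPM in the controls. The log2 fold change was 1.77 (SE 0.443), with an edgeR adjusted p of 0.433 and a DESeq2 adjusted p of 0.0375. The DESeq2 adjusted p was 0.671 without labelled knockout 1, 0.259 without control 1, 0.0586 without control 2 and 0.08 without control 3, and the call held only without labelled knockout 2 (0.0326). Choroid plexus markers were higher in the same libraries, at 576 and 349.8 CPM against 60.6 to 213 CPM in controls, and their part in the Lrrk2, Micall2 and Rab3d values was not tested. Rabl6, the most abundant of 6 other Rab-like genes tested, was at 134 and 118 CPM in knockout-labelled and 103, 122 and 112 CPM in control libraries, and 0 of these 6 reached an unadjusted p under 0.05.

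**Figure D5:**
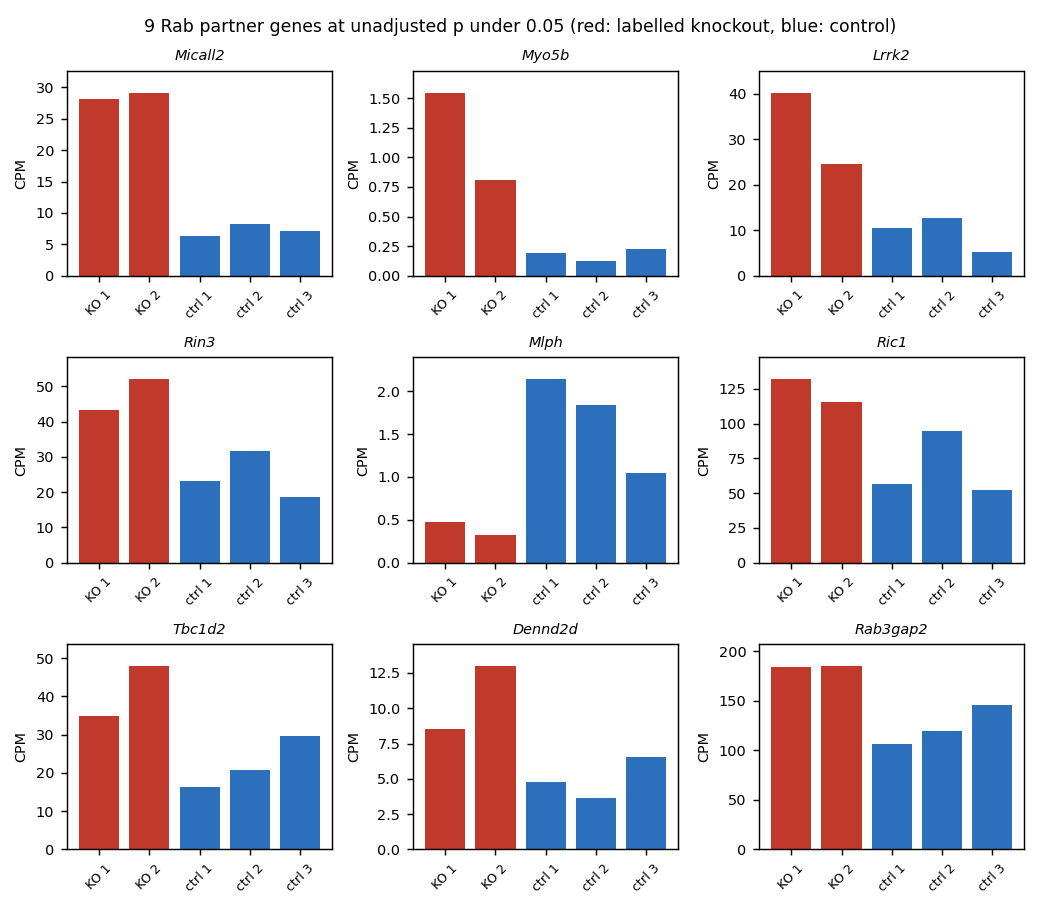
Level in each library, in TMM-scaled CPM from 0, of the 9 Rab partner genes named for an unadjusted edgeR p under 0.05. Knockout-labelled libraries are red and controls blue. Micall2 is at 28.2 and 29.2 CPM in knockout-labelled and 6.35 to 8.24 CPM in control libraries, and Mlph is the only one that is lower in the knockout-labelled libraries.

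The 11 Rab rows left out for low counts held 0 to 36 reads each. Rab42 was just outside the limit, with 7 and 14 reads in the knockout-labelled libraries against 6, 6 and 3 in the controls, and Rab33a just inside, with 18 and 4 reads (knockout-labelled) against 14, 10 and 19. (control) Rab3a and Rab17, an epithelial Rab, had 0 reads in all libraries, and Rab25, another epithelial Rab, had 1. Rab38, the paralog of Rab32 in pigment cells, had 0 and 3 reads in the knockout-labelled libraries against 7, 4 and 1 in the controls. Rab4b had 3 and 0 reads in the knockout-labelled libraries and 0 in each control. It shares 1280 of its 1970 exonic bases with Gm21983 on the same strand, so its count is uncertain. Rab26, a secretory granule Rab, had 13 and 4 reads in the knockout-labelled libraries against 3, 0 and 0 in the controls, and its exons overlap those of Traf7 on the same strand.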

How the data were processed

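The authors deposited 1 table of whole-number read counts per gene symbol, not normalized as far as the values show. Per the submitters' processing notes, FastQC, STAR and HTSeq and the build mm10 were used; no source used here states versions, annotation or strand setting. RNA was isolated with Trizol and a NEBNext Ultra kit made the libraries, per the labels' protocols. Groups and numbers came from sample titles; the third control's title carries 2 numbers and its library number was used. The 21926 table symbols found in GENCODE M21 (99.7%) were given coordinates and lengths.

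All genes were tested with edgeR 4.0.16 (R 4.3.3): filterByExpr, TMM factors, quasi-likelihood F test with robust estimation, two-sided, 3 residual degrees of freedom, and Benjamini-Hochberg adjustment over 12543 genes at 0.05. DESeq2 1.42.0 and limma-voom (limma 3.58.1) were alternatives. CPM uses TMM-scaled library sizes. SE is the log2 fold change divided by the root of F. The steps were tested on simulated data. Members, lists, tests and the rule for full values (unadjusted p under 0.05, DESeq2 call, the 6 highest levels, the highest of each group, non-overlap at a mean of at least 10 CPM, extreme fold changes; at most 3 partners per list) were chosen with earlier results of these data known.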

Additional observations from a re-analysis of the deposited data

How the results depend on the processing

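The count of Rab members past the adjusted threshold was 0 in edgeR's quasi-likelihood test under every scaling, filter, estimation method and left-out library tried, 0 in limma-voom and 1 in DESeq2. At an unadjusted p under 0.05 the lower members numbered 2 with library totals and 2 in limma-voom. Leaving out each library in turn gave 1 to 3 higher and 1 to 6 lower members, with 6 lower without labelled knockout 2 and 1 higher without each of the controls, and moved the median log2 fold change from -0.24 without labelled knockout 2 to -0.048 without control 3. Correlations between libraries of the same replicate number, of deviations from the group mean, were 0.148 for number 1 and -0.562 for number 2. With 2 knockout-labelled libraries these deviations mirror each other, so the correlations cannot show whether the numbers pair the libraries. With a replicate block 0 members were higher and 0 lower at an unadjusted p under 0.05. Of 225 values of the 15 named members under alternatives, 9 changed sign, in Rab1a (0.013 with the replicate block) and, leaving out each library in turn, in Rab1a (-0.27 to 0.037), Rab31 (-0.086 to 0.46), Rab7 (-0.33 to 0.11), Rab32 (-0.12 to 0.29) and Rab40c (-0.22 to 0.49). The cause was not tested. With the union of exons as length, levels were 187 CPM per kb for Rab7, 84.5 for Rab1b and 60.996 for Rab1a. Scaling choices added after seeing the data gave 7 to 9 members below every control, where 9.85% to 11.01% of all genes lay below, and 2 above, where 9.69% to 10.3% did. Depth limits the members under 1 CPM most, since their values rest on few reads, and counting error alone is wide there.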
